A study of Mus musculus with 146 samples.

Results

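Single germ cells of the newborn mouse ovary were divided by the share of their reads that came from spike-in RNA, and the 31 cells with the lowest share were compared, gene by gene, with the 31 cells with the highest. Of 146 sequenced cells, 1 was left out because its Ddx4 level was below 1 TPM (the deposited unit, which gives the share of a gene in the transcripts of a cell), and 52 were left out because their level of Zp3, a zona pellucida gene of oocytes, was at least 1 TPM. The other 93 cells were ranked by spike-in share and gave 31 RNA-rich cells, 31 cells in a middle group and 31 RNA-poor cells. All cells came from C57/BL6J females of age D0.5, the study's P0.5, and received no treatment. They were picked by mouth pipette from digested ovaries (5 ovaries from pups of the same litter), and each was made into its own Smart-seq2 library. The labels tie no cell to a pup and the groups were formed from a measured value, so the cells count as 1 sample and the comparison is a description without a test. Pipetting chose the cells that were sequenced, so the groups describe picked cells and not the proportions of the ovary.

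Spike-in RNA is a mixture of artificial transcripts added in the same amount to every lysate. A cell with more RNA of its own therefore leaves a smaller share of reads for the mixture. In the perinatal mouse ovary, germ cells leave their cysts, some sister cells pass cytoplasm and organelles to others and die, and the survivors become the oocytes of primordial follicles. Transcription factors such as FIGLA, NOBOX, SOHLH1 and LHX8 act in that step, and oocytes are known to store RNA for later use.

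Spike-ins took 0.144 to 0.348% of the reads of the RNA-rich cells, with a median of 0.240%, and 0.548 to 1.23% of those of the RNA-poor cells, with a median of 0.728%. The last RNA-rich cell had 0.348% and the first cell outside had 0.352%, and at the other limit the values were 0.542% outside and 0.548% inside. The ranking is continuous, so the groups are ends of a range and not cell types. Each spike-in read stood beside a median of 416 other reads in RNA-rich and 136.4 in RNA-poor cells. More RNA in the cell and less spike-in mixture in the tube lower the share alike and cannot be told apart here. The names RNA-rich and RNA-poor stand for the rule and not for a measured mass of RNA. Joined germ cells would also lower the share, and no doublet caller was run, so their part was not tested.

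The libraries of both groups were deep. Total reads ranged from 5941633 to 26192713 (median 10401059) in RNA-rich, from 6162117 to 13917703 (median 9088211) in the middle and from 4102560 to 27057611 (median 8494040) in RNA-poor cells. The groups were spread unevenly over the numbers in the sample titles, whose meaning the labels do not give. In 4 consecutive runs of these numbers there were 8, 7, 9 and 7 RNA-rich cells and 10, 15, 3 and 3 RNA-poor cells. When the groups were formed within each run and pooled, 2904 genes were higher and 1682 lower in RNA-rich cells, against 3041 and 1817 without that step. Reads of mitochondrial genes made up 1.66 to 8.74% (median 5.43%) in RNA-rich and 0.212 to 20.9% (median 7.32%) in RNA-poor cells.

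Both groups carried the marks of germ cells. The germ cell genes Dazl, Mael, Sycp3 and Taf7l stood at 1 TPM or more in all 31 cells of each group. Of the other 3 markers, Tdrd1 did so in 29 and 29, Rbm46 in 30 and 24 and Dppa3 in 23 and 28 RNA-rich and RNA-poor cells. Sycp3, of the lateral element of the synaptonemal complex, had a median of 2547 TPM in RNA-rich and 3132 TPM in RNA-poor cells. Ddx4, the germ cell RNA helicase that the rule used as a lower limit, had medians of 272 and 171 TPM. Of the pregranulosa markers, Foxl2, Nr5a1, Amhr2 and Kitl had medians of 0 TPM in both groups, and the summed level of all 13 pregranulosa markers ranged from 0 to 23.03 TPM in RNA-rich and from 0 to 82.1 TPM in RNA-poor cells. Wnt4 had medians of 0.064 and 0.032 TPM, and Cdkn1b stood at 1 TPM or more in 9 RNA-rich and 8 RNA-poor cells. Foxl2 stood at 1 TPM or more in 1 RNA-rich and 3 RNA-poor cells, at up to 1.22 and 13.07 TPM. The authors had removed libraries positive for Foxl2 by quantitative PCR. The summed level of the stroma markers had a median of 17.8 TPM (up to 296 TPM) in RNA-rich and 3.25 TPM (up to 278 TPM) in RNA-poor cells. Of these, Nr2f2 stood at 1 TPM or more in 18 and 9 cells. Summed levels of the surface epithelium markers had medians of 1.10 and 0.10 TPM in RNA-rich and RNA-poor cells, and reached 17.5 and 64.96 TPM. Their part in the results was not tested.

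**Figure D1:**
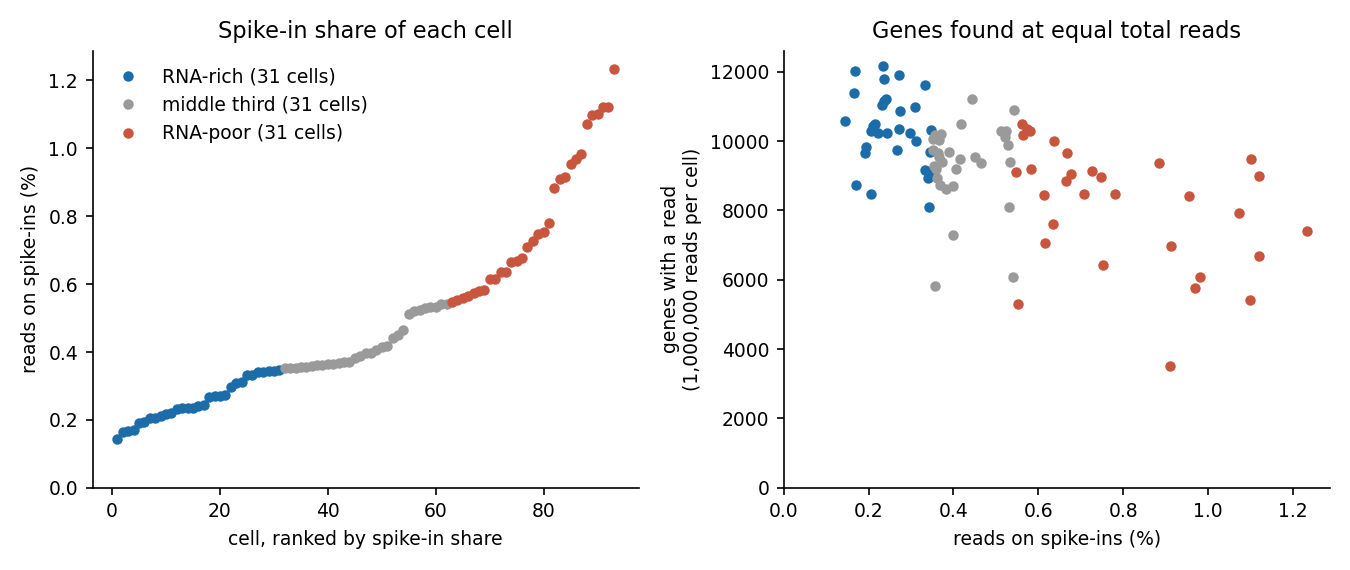
Left, the percentage of reads on spike-ins in each of the 93 cells, ranked and coloured by group. Right, the number of genes with a read after each cell was thinned to 1000000 reads, against the same percentage. RNA-rich cells lie between 8091 and 12170 genes and RNA-poor cells between 3523 and 10480.

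RNA-rich cells contained reads of more genes, also at an equal number of reads. Mitochondrial reads are included in that number and spike-in reads are not. A median of 12778 genes (9865 to 16610) had at least 1 read in RNA-rich, and 10376 (6450 to 13965) in RNA-poor cells. With each cell thinned to 1000000 reads, the medians were 10321 (8091 to 12170), 9528 in the middle group (5833 to 11217) and 8486 (3523 to 10480). The ranges overlap, but the lowest counts were found in RNA-poor cells. The difference of the thinned medians was 1835 genes, and it was 1393 with groups formed within runs of title numbers and 1840 with groups formed within the lower and upper range of total reads, but 974 with 46 cells in each group. Reads were also gathered on fewer genes. With mitochondrial genes and spike-ins left out, the 50 most abundant took a median of 13.05% of the reads in RNA-rich and 15.5% in RNA-poor cells.

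The lower number of genes came with a patchy detection of genes that RNA-rich cells had in common. Whether expression or the capture of RNA differed was not tested. Across the 11613 coding genes whose mean over the 62 cells was 1 TPM or more, the median gene was found, at 1000000 reads, in 77.4% of RNA-rich and 51.6% of RNA-poor cells. For genes between 10 and 100 TPM the values were 87.1% and 64.5%, and for genes between 100 and 1000 TPM they were 100% and 93.5%. With all reads, 3016 genes had a read in every RNA-rich cell and 858 in every RNA-poor cell. Of these, 831 were common to both, and 27 were found in every RNA-poor cell but not in every RNA-rich cell. The coefficient of variation (CV, the SD over the cells as a percentage of their mean) had a median over genes of 111.2% in RNA-rich and 175% in RNA-poor cells, and it was higher in RNA-poor cells for 89.2% of genes. Where a gene between 1 and 10 TPM was detected, its level was lower in RNA-rich cells, with a median log2 ratio of -0.52. With near-equal means, a lower level where detected goes with detection in more cells, so this value is not independent of the shares above.

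The median CV of the spike-ins differed less between the groups, but single spike-ins differed more. It was taken from shares of spike-in reads and that of genes from TPM, so the measures are not alike. Level matters too, as genes over 1000 TPM had median CVs of 41.7% in RNA-rich and 57.2% in RNA-poor cells. The CV of ERCC-00074, the most abundant, was 10.1% in RNA-rich and 19.4% in RNA-poor cells, and that of ERCC-00042 was 72.3% and 112.4%. For the 11 spike-ins that held at least 1% of spike-in reads, the median CV was 30.4% in RNA-rich and 31.96% in RNA-poor cells, although 10 of the 11 had the higher value in RNA-poor cells. A median of 22 spike-ins had a read in both groups. RNA-poor cells had more spike-in reads, with a median of 53987 against 25537, so the mixture itself was sampled more deeply in them.

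**Figure D2:**
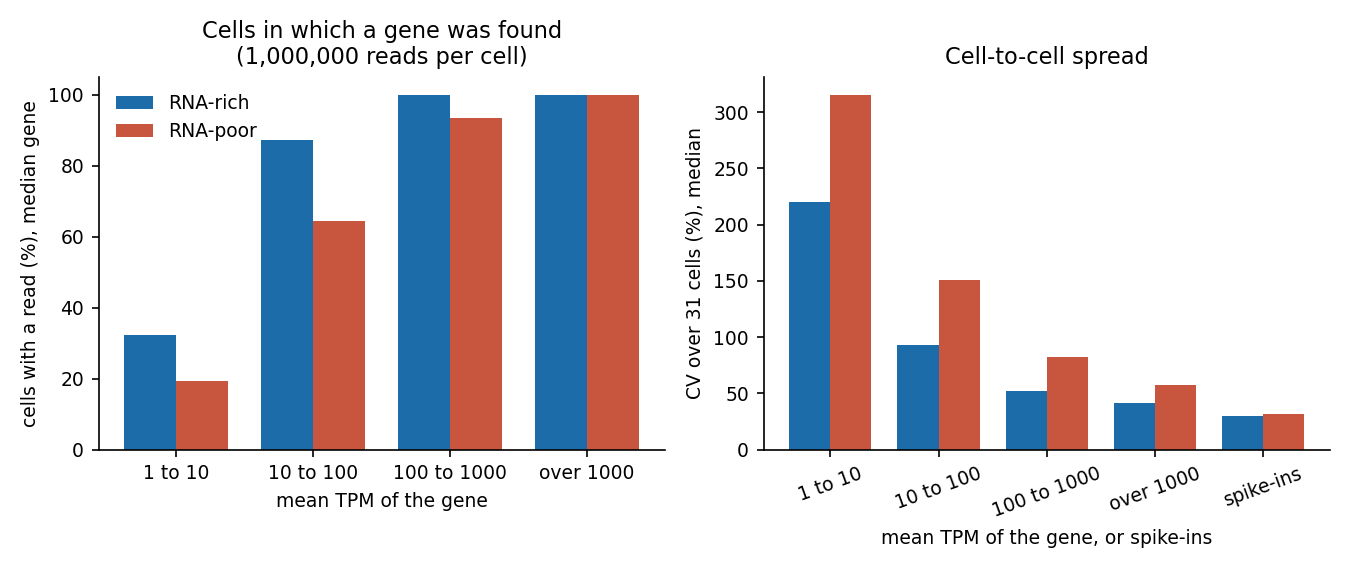
Left, the percentage of cells in which the median gene had a read at 1000000 reads per cell, by mean TPM. Right, the median CV over 31 cells, of TPM by mean TPM, and of the share of spike-in reads for 11 spike-ins. RNA-poor cells have the lower detection up to 1000 TPM and the higher CV in each class, with spike-ins at 30.4% and 31.96%.

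Mean levels were then compared as log2 ratios of RNA-rich over RNA-poor cells, with a pseudocount of 1 TPM in both means. A ratio was called a difference from 1.5-fold (0.58 on the log2 scale). Of the 11613 genes, 3041 (26.2%) were higher and 1817 (15.6%) lower in RNA-rich cells, and the median ratio of all genes was 0.14. Relative to that median, 2403 genes were higher and 2353 lower, a balance that centring itself largely sets. Of the 1588 genes at a mean of 100 TPM or more, 227 (14.3%) were higher and 93 (5.86%) lower. Abundant genes were thus called less often, and the part of level in the list shares below was not tested. After division by the spike-in TPM of the cell, 10043 genes (86.5%) were higher and 340 (2.93%) lower, with a median ratio of 1.5. That shift follows from the way the groups were formed, and nothing is read from it. Relative to that median, 2228 genes (19.2%) were higher and 2602 (22.4%) lower. With the difference of mean log2(TPM + 1), which weighs cells without a read more strongly, 6403 genes (55.1%) were higher and 183 (1.58%) lower, around a median of 0.69. Relative to its median, that measure had 2854 genes higher and 2372 lower. The balance of higher and lower genes thus moved with averaging, scaling and centring alike.

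Cells outside both groups gave a further description. The 52 cells with Zp3, which share no cell with the 62, were ranked in the same way and gave 17 cells at each end. There, 41.4% of the genes that were higher above were higher again and 15.3% lower, where 28.4% and 21.1% of all genes were. Of the lower genes, 36.7% were lower again and 19.1% higher. Most genes called in cells without Zp3 were therefore not called in the same direction in cells with Zp3.

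Among the genes that passed the limits on level and number of cells used for naming, Pink1 had the largest ratio after the globins. Pink1 encodes a kinase of the mitochondrial outer membrane that marks damaged mitochondria for removal. Its level ranged from 0 to 101.6 TPM in RNA-rich cells, with a median of 24.02 TPM, and from 0 to 7.62 TPM in RNA-poor cells, with a median of 0. A read was found in 25 RNA-rich, 16 middle and 6 RNA-poor cells, and the log2 ratio was 4.06 (3.90 to 4.32 with each cell left out in turn). Over all tested genes, the median gene had a read in 87.1% of RNA-rich and 64.5% of RNA-poor cells, so part of such a gap is shared by most genes, and 3 genes (Leprotl1, Vars2 and Ubald2, looked up for this gap) had a wider one, of 20 cells. The lowest RNA-rich cells overlapped with RNA-poor cells at 0. Relative to all genes, the ratio of 3.92 fell to 1.93 with 46 cells in each group, and the difference of mean log2(TPM + 1) was 2.49 on that scale. In cells with Zp3 the ratio was 0.10, with medians of 12.9 TPM at the low and 0.18 TPM at the high end of spike-in share. Park2 encodes parkin, the ubiquitin ligase that PINK1 activates, and its ratio was in the other direction, at -1.71 (-2.29 to -1.50 with each cell left out in turn), with medians of 1.51 and 3.83 TPM.

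The other genes with the largest ratios differed in the number of cells that contained them, where the limit for naming asked for presence in at least 50% of RNA-rich cells. With 46 cells in each group, the ratios relative to all genes were smaller for all 12 of the higher genes with the largest ratios, at a median of 1.67 against 3.44. Plscr1, a phospholipid scramblase, had a read in 19 RNA-rich and 3 RNA-poor cells, with a ratio of 3.66, and Etohi1 in 17 and 1, with a ratio of 3.50. With 46 cells in each group their ratios relative to all genes were 1.82 and 0.62. Both were also read in 7 to 10 cells of the middle group, so the number of cells with a read fell in the order of the groups. The median number of genes read per cell fell in that order too, so the order is not particular to these genes. Zdhhc9, a palmitoyltransferase, had a ratio of 3.10 (0.97 relative to all genes with 46 cells in each group) and was read in 24, 19 and 12 cells. Ano1, a chloride channel, had a ratio of 3.35, but it was read in 18 RNA-rich and 17 middle cells and its ratio in cells with Zp3 was -1.24. Relative to all genes, it turned to -0.16 with 46 cells in each group, -0.17 with the share taken from TPM, -0.49 with groups formed within total reads and -0.70 in all cells with Ddx4. Zfp579 had a ratio of 3.09, which ranged from 2.08 to 3.46 with each cell left out in turn, was 1.39 in CPM (reads scaled to a common total) and turned to -0.59, relative to all genes, with groups formed within total reads. It was read in 16 RNA-rich and 11 RNA-poor cells. Coq4, of coenzyme Q synthesis, had a ratio of 3.29 (1.28 in CPM, -0.84 in cells with Zp3) and was read in 31 RNA-rich and 26 RNA-poor cells. Usp10, a deubiquitinase, had a ratio of 3.07 (1.45 relative to all genes with 46 cells in each group) and was read in 27 and 20 cells. Exons of Coq4 overlap those of Trub2 on the other strand, and these libraries do not mark strand, so reads of both cannot be told apart.

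Globin RNA had the largest ratios of the genes named and came mostly from few cells. The log2 ratio was 5.76 for Hba-a2, 5.35 for Hbb-bs and 5.08 for Hba-a1, which encode the chains of adult haemoglobin. Hbb-bt, another globin, had a ratio of 6.40 (4.05 to 7.49 with each cell left out in turn). It was read in 13 RNA-rich and 4 RNA-poor cells, with medians of 0 TPM. The summed globin level had a median of 71.2 TPM in RNA-rich, 82.9 TPM in middle and 27.5 TPM in RNA-poor cells, and it reached 324551 TPM in 1 RNA-rich cell. At least 1000 TPM were found in 9 RNA-rich, 5 middle and 2 RNA-poor cells. Without the globin-richest cell the ratio of Hba-a2 was 3.58. With the groups formed again without all cells at 1000 TPM or more, 3376 genes were higher and 1835 lower, and the ratio of Hba-a2 relative to all genes was 0.60. The globins named here are near-identical to their gene copies, so the counts of single copies are uncertain.

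Among the lower genes named by the same limits, Ulk4 had the largest ratio. Ulk4, a kinase-like gene, ranged from 0 to 58.7 TPM in RNA-rich cells, with a median of 0.63 TPM, and from 0 to 224 TPM in RNA-poor cells, with a median of 25.4 TPM. Its log2 ratio was -2.50 (-1.48 in CPM), and that in cells with Zp3 was -2.13. Exons of Ulk4 overlap those of Ctnnb1 on the other strand. Slc24a5, which overlaps Myef2 on the other strand, had a ratio of -2.04 and was read in 9 RNA-rich and 22 RNA-poor cells. For both genes the reads of the partner cannot be told apart. Zfp532, a zinc finger gene, was read in 30 and 29 cells, with medians of 32.5 and 175 TPM and a ratio of -1.79 (-0.86 in CPM), and its ratio in cells with Zp3 was -2.24. Exons of Zfp532, Nt5c3b, Qsox1 and Taf4 also overlap genes on the other strand. Dzip1l had a ratio of -2.36 that ranged from -3.00 to -1.42 with each cell left out in turn and was -0.36 in CPM. Ratios of Qsox1, Syne2, Nt5c3b, Arap2, Dock9, Ccdc57 and Taf4 lay between -1.87 and -1.72. With 46 cells in each group, ratios relative to all genes were smaller for all 12 lower genes, at a median of -1.495 against -1.93. That of Taf4 was then -0.52, under 1.5-fold, and 11 of the 12 stayed past it. In cells with Zp3, the ratios of Qsox1 (0.62), Nt5c3b (0.33) and Park2 (0.17) were in the other direction. The medians of Arap2 (1.22 TPM in RNA-rich and 0.14 TPM in RNA-poor cells) and Dock9 (9.45 and 6.43 TPM) also went against their mean ratios. Per spike-in TPM, the mean ratios of the lower genes named here and of Park2 stood at -0.16 or lower.

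The transcription factors of follicle formation were not higher in RNA-rich cells as a group. Of 17 tested members, 2 (11.8%) were higher and 6 (35.3%) lower, where 26.2% and 15.6% of all genes were, with a median ratio of -0.32 against 0.14 for all genes. Per spike-in TPM the median of this list, like that of every list here, was above 0, and its difference from the median of all genes was -0.25. Figla, which activates zona pellucida genes, ranged from 36.5 to 3867 TPM (median 1332) in RNA-rich and from 1.87 to 3849 TPM (median 1350) in RNA-poor cells, and its ratio was -0.21. Lhx8 (-0.03), Foxo3 (-0.02), Nobox (0.31) and Sohlh1 (-0.40) also stayed under 1.5-fold. Their ranges overlapped, but the difference of mean log2(TPM + 1) was 1.30 for Foxo3 and -1.08 for Sohlh1, past 1.5-fold in opposite directions. Cells in which Sohlh1 was below 10 TPM numbered 4 among the RNA-rich, 5 in the middle and 2 among the RNA-poor cells.

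Sohlh2, the partner of SOHLH1, had a read in every RNA-rich but not in every RNA-poor cell, a pattern shared by 2185 tested genes. It ranged from 20.7 to 405 TPM with a median of 113.97 TPM in RNA-rich cells, and from 0 to 487 TPM with a median of 28.5 TPM in RNA-poor cells. A read was found in all 31 RNA-rich and all 31 middle cells but in 24 RNA-poor cells, while the highest single value belonged to an RNA-poor cell. Its log2 ratio was 0.59 and the difference of mean log2(TPM + 1) was 2.47. Taf4b, a germ cell subunit of TFIID, had medians of 42.05 and 17.2 TPM and a ratio of 0.56. Trp63, the p53 relative that guards oocyte DNA, had medians of 11.4 and 0.026 TPM and a ratio of 0.69. Sohlh2 and Trp63 were the higher members of this list, but both fell under 1.5-fold without 1 cell (lowest ratios of 0.48 and 0.49) and in CPM (0.47 and 0.56).

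The inhibitors of DNA binding were the most abundant of the lower factors. ID proteins pair with helix-loop-helix factors and keep them from their E-box sites. Id1 ranged from 0.70 to 9355 TPM (median 1668) in RNA-rich and from 0 to 9977 TPM (median 2838) in RNA-poor cells. Id2 had medians of 193 and 541 TPM, and Id3 of 668 and 1398 TPM. The ranges of each gene overlap nearly throughout, and the medians of the middle group were 3096, 296 and 910 TPM. The TPM ratios were -0.61, -0.93 and -0.81, which turned to 0.71, 0.73 and 0.65 per spike-in TPM, below the 1.5 of all genes. In cells with Zp3 the ratios were -0.38, -0.98 and -0.35. Id2 alone of the 3 passed 1.5-fold there. Leaving out single cells moved the TPM ratio of Id1 between -0.77 and -0.52 and that of Hes6 between -0.77 and -0.56, so 1 cell can end either call. Bhlhe41 (-1.15, 0.33 per spike-in TPM) and Hes6 (-0.65, 0.98 per spike-in TPM), repressors of the same class, were lower in TPM as well. Per spike-in TPM both were below the 1.5 of all genes. Hes1 (-0.39) and Stat3 (-0.32) were under 1.5-fold. Gata4, with a ratio of -1.73, had a median of 0 in both groups, and with each cell left out in turn it ranged from -1.85 to -0.99. In CPM it was -0.41, under 1.5-fold.

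Promoters are shown for Pink1, which had the largest ratio outside globins among the genes that passed the limits for naming, and for Id2 and Id3. Id1 is not shown. The sequences are from RefSeq (GRCm38.p6), run from 250 bases before to 50 bases after the gene start, and are written along the strand of the gene. Pink1 is at chr4:138326247-138326546 (minus strand), Id2 at chr12:25096043-25096342 (minus strand) and Id3 at chr4:136143572-136143871 (plus strand). Capitals mark CANNTG, the E-box, and GGGCGG, the GC box, on either strand; TATAAA was searched as well.
Pink1: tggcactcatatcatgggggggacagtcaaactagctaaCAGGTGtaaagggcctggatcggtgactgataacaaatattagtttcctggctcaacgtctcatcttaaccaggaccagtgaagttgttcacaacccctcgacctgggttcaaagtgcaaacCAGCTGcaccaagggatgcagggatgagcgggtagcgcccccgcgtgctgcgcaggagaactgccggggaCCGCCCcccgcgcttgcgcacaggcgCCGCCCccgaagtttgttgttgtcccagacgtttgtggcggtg
Id2: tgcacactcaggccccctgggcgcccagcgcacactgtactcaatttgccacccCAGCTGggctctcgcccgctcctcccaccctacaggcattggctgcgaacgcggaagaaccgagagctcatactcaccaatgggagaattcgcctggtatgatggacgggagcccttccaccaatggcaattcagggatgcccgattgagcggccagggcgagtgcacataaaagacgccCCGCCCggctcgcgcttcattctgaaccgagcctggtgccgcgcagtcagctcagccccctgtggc
Id3: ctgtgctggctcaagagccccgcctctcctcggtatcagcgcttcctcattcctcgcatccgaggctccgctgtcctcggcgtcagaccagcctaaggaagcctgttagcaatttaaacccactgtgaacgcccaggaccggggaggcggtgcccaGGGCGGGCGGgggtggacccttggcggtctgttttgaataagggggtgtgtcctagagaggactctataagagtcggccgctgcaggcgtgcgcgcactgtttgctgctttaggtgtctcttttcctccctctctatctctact

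The Pink1 window holds 2 E-boxes and 2 GC boxes, that of Id2 holds 1 of each, and that of Id3 holds 2 GC boxes, which overlap, and 0 E-boxes. TATAAA is in 0 of the 3 windows. Among 32851 promoters of the same length, 72.3% hold an E-box, 35.7% a GC box and 13.6% TATAAA. A match is a description of the letters and does not mark a site in use.

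**Figure D3:**
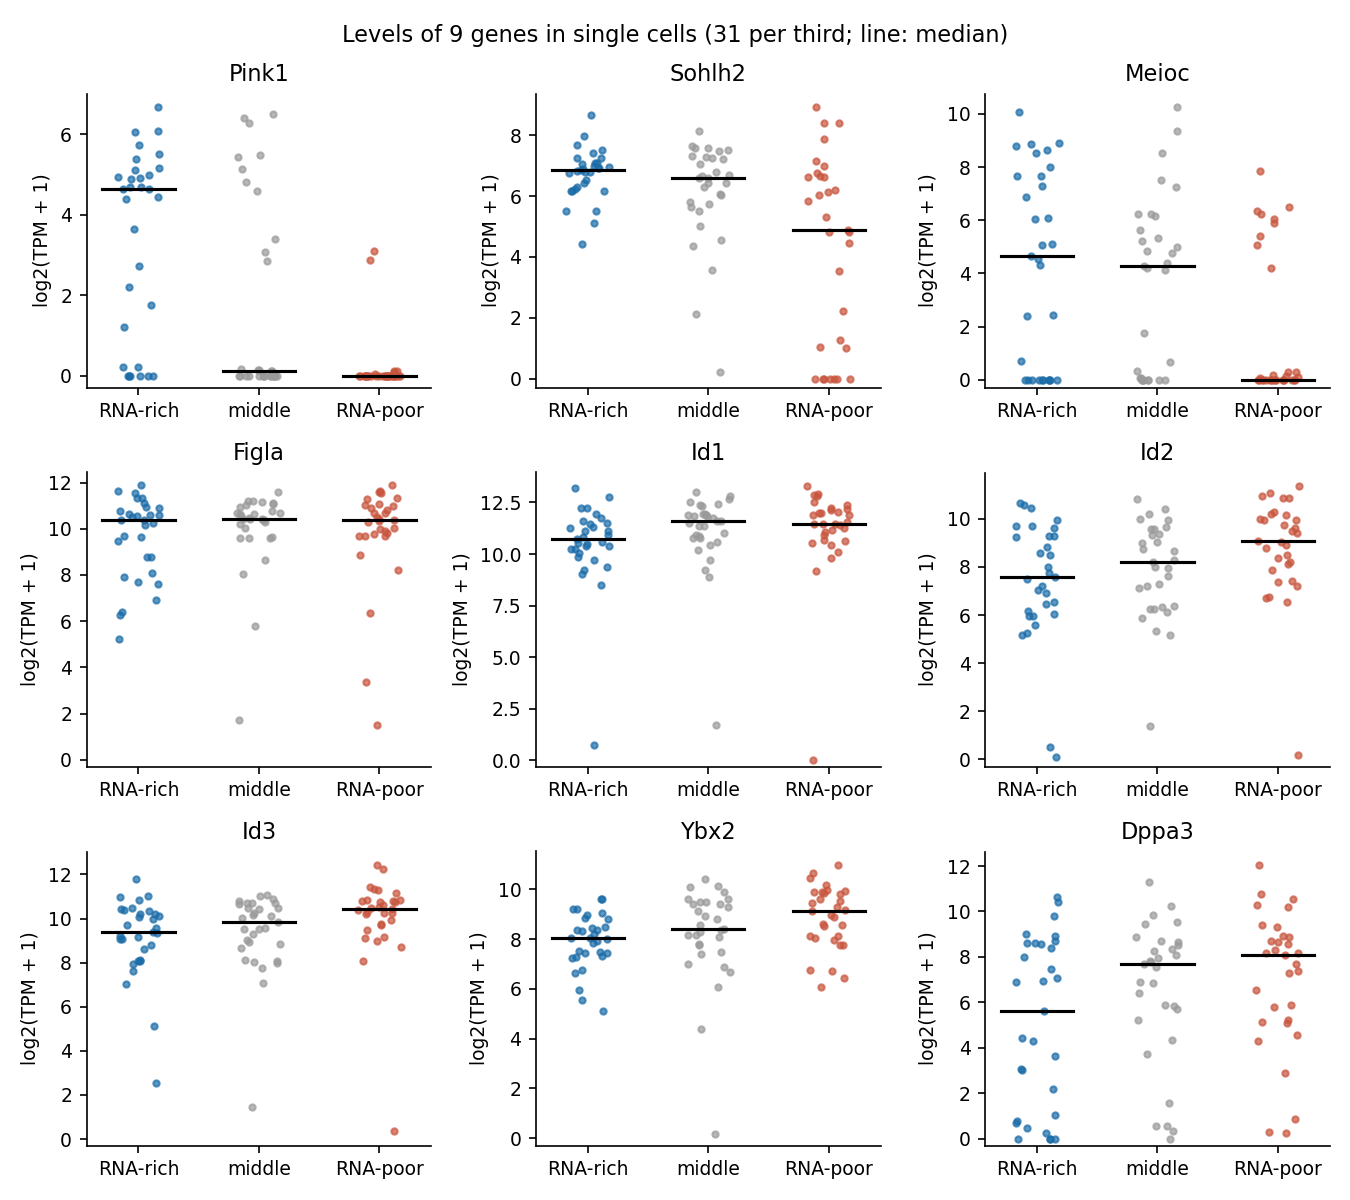
Level of 9 genes as log2(TPM + 1) in single cells of the RNA-rich, middle and RNA-poor groups, 31 cells each, with the median as a line. Pink1 and Meioc have a median of 0 in RNA-poor cells, the Id genes, Ybx2 and Dppa3 have their lowest median in RNA-rich cells, and the medians of Figla are 1332, 1370 and 1350 TPM.

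Among oocyte and maternal genes, 6 of 25 (24%) were higher and 4 (16%) lower, shares near those of all genes (26.2% and 15.6%). Ybx2 encodes the RNA-binding protein that stores maternal mRNA. It ranged from 33.9 to 775 TPM (median 260.2) in RNA-rich and from 66.3 to 2012 TPM (median 551) in RNA-poor cells, and it was read in every cell of both groups. Its TPM ratio was -1.07 and turned to 0.36 per spike-in TPM. Dppa3, which protects the maternal genome from demethylation, had medians of 48.5 and 269 TPM and a ratio of -1.0, which turned to 0.70 per spike-in TPM and, relative to all genes, to 0.50 in all cells with Ddx4. Per spike-in TPM, both were below the 1.5 of all genes. Zp2, a further zona gene, had a ratio of 1.25 with medians of 0.71 and 0.067 TPM, and the limit on Zp3 was set in the same cells. Padi6, of the cytoplasmic lattices of the oocyte, had a ratio of 1.31 that ranged from 0.54 to 4.74 with each cell left out in turn, was 0.41 in CPM and turned to -1.535, relative to all genes, with groups formed within total reads. In the list of germline RNA storage and RNA binding, 9 of 36 genes (25.0%) were higher and 4 (11.1%) lower. Pum2, a translational repressor, had a ratio of 0.89, but 0.32 in CPM, which is under 1.5-fold. Cpeb2 had a ratio of -3.85 that came from 1 RNA-poor cell at 3204 TPM and was 1.21 without it and 0.22 in CPM.

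Of 41 tested meiosis genes, 11 (26.8%) were higher and 1 (2.44%) lower in RNA-rich cells, where 26.2% and 15.6% of all genes were. Among genes at a mean of 100 TPM or more, 14.3% were higher and 5.86% lower. The median ratio of the meiosis genes was 0.22, which lay below that of all genes in the difference of mean log2(TPM + 1). Meioc, which stabilises the meiotic programme, ranged from 0 to 1087 TPM (median 24.4) in RNA-rich and from 0 to 228 TPM (median 0) in RNA-poor cells, and its ratio was 2.64. Dmc1, the recombinase of meiotic strand exchange, was read in 27 RNA-rich and 15 RNA-poor cells, with a ratio of 1.10. Msh5, of crossover formation, had a ratio of 1.10 and was read in 20 and 11 cells. In cells with Zp3 the ratio was 2.24 for Meioc but -1.65 for Dmc1 and -1.36 for Msh5. The lower member was Sycp2l, an oocyte relative of Sycp2 at -0.79 (0.56 per spike-in TPM, below the 1.5 of all genes). Leaving out single cells moved its ratio between -1.21 and -0.50, so 1 cell can end that call, and it was -0.29 relative to all genes with 46 cells in each group. The summed level of the list had a median of 10836 TPM in RNA-rich and 10561 TPM in RNA-poor cells.

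Among the lists with at least 10 tested members, the tRNA synthetases had the highest median ratio, while ribosomal proteins were near 0. Of 20 genes of synthetases, which charge tRNA with amino acids, and their AIMP partners, 6 (30.0%) were higher, near the 26.2% of all genes, and 0 lower, against 15.6%, and the median ratio was 0.47. Rars ranged from 46.4 to 549 TPM (median 214) in RNA-rich and from 0 to 389 TPM (median 90.3) in RNA-poor cells, with a ratio of 1.08. Gars had medians of 105.3 and 46.4 TPM (1.08), Qars of 174 and 66.96 TPM (0.70) and Lars of 10.4 and 0 TPM (1.20). In CPM the ratio of Qars was 0.51, under 1.5-fold. The 3 abundant synthetases had a read in all 31 RNA-rich cells and in 26 to 29 RNA-poor cells. In all, 2185 tested genes had a read in every RNA-rich but not in every RNA-poor cell, so this is not particular to synthetases. Of 59 initiation and elongation factors, 14 were higher and 2 lower, with a median of 0.21. Eif4g2, a scaffold of initiation, had medians of 426 and 179 TPM and a ratio of 1.12, and a read was found in every cell. The cytosolic ribosomal proteins, whose median member had a mean of 456 TPM, had 7 of 85 members (8.24%) higher and 4 (4.71%) lower. Their median ratio was 0.07. Of all genes at a mean of 100 TPM or more, 14.3% were higher and 5.86% lower. The summed level of the ribosomal proteins had medians of 50605 and 53080 TPM. Rpl5 had a ratio of 1.24. Rps7 had one of -1.16, but its medians were 35.9 and 36 TPM, and its value was -0.51 in CPM. In the difference of mean log2(TPM + 1) it was -0.21, which is -0.895 relative to all genes. Per spike-in TPM it was 0.32, below the 1.5 of all genes. In the ribosome biogenesis list, 6 of 53 were higher and 3 lower.

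Chaperones and growth signalling genes were counted beside the 26.2% of all genes that were higher and the 15.6% that were lower. Of 63 heat shock chaperones, 20 (31.7%) were higher and 5 (7.94%) lower, with a median of 0.28. Dnaja4, a co-chaperone, was read in 21 RNA-rich, 19 middle and 4 RNA-poor cells, with medians of 15.9 and 0 TPM. Its ratio was 2.00 (1.90 to 3.27 with each cell left out in turn) and was 2.41 in cells with Zp3, but 0.68 relative to all genes with 46 cells in each group. Of 35 genes of the PI3K and mTOR pathway, which links growth factors to protein synthesis, 11 (31.4%) were higher and 4 (11.4%) lower, with a median of 0.26, which lay below that of all genes in CPM. Akt1s1, an inhibitor within mTOR complex 1, had a ratio of 1.70 (0.88 in CPM) and medians of 53.5 and 4.67 TPM. Rragc, a GTPase that brings mTOR complex 1 to the lysosome, had a ratio of 1.41 and medians of 40.3 and 1.56 TPM, and its ratio relative to all genes was 0.48 with 46 cells in each group, under 1.5-fold. The higher members thus include activating and inhibiting parts of the pathway. Pik3r1, a regulatory subunit of the kinase, had a ratio of -1.61 that was 0.05 without 1 RNA-poor cell. Per spike-in TPM it was 0.14, below the 1.5 of all genes.

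Genes of respiration had median ratios below that of all genes, where 26.2% of all genes were higher and 15.6% lower. Among genes at a mean of 100 TPM or more, these shares were 14.3% and 5.86%. The 13 protein-coding genes of the mitochondrial genome had 0 (0%) higher and 2 (15.4%) lower members, with a median of -0.39. These were mt-Cytb, with medians of 7133 and 9566 TPM and a ratio of -0.64, and mt-Nd2, with 1135 and 1400 TPM and a ratio of -0.63. Both fell under 1.5-fold without 1 cell (-0.55 and -0.51) and in the difference of mean log2(TPM + 1) (-0.25 and -0.52). Relative to all genes, however, that difference was -0.93 for mt-Cytb and -1.205 for mt-Nd2, past 1.5-fold. On the scale per spike-in TPM both turned to 0.70 and 0.67, below the 1.5 of all genes. The summed level ranged from 21101 to 125510 TPM in RNA-rich and from 7411 to 275581 TPM in RNA-poor cells, so that the RNA-poor cells held both the lowest and the highest values. Of 83 nuclear genes of the respiratory chain, 9 (10.8%) were higher and 11 (13.3%) lower, with a median of -0.19. Ndufv3, of complex I, was lower with medians of 101.3 and 248 TPM and a ratio of -1.01. Per spike-in TPM it was 0.48, also below the 1.5 of all genes. Mitochondrial ribosomal proteins had 5 of 77 members (6.49%) higher and 2 (2.60%) lower.

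Few genes of the machinery that makes and removes mRNA passed 1.5-fold, where 26.2% of all genes were higher and 15.6% lower. Among genes at a mean of 100 TPM or more, these shares were also smaller, at 14.3% and 5.86%. Of 13 subunits of RNA polymerase II, 1 was higher and 1 lower. Polr2b, the second largest subunit, had medians of 160.4 and 68.2 TPM and a ratio of 0.91. Polr2k had medians of 127.1 and 202 TPM and a ratio of -0.78 (0.62 per spike-in TPM, below the 1.5 of all genes). Of 57 genes of mRNA deadenylation and decay, 4 (7.02%) were higher and 8 (14.04%) lower, with a median of -0.19. The splicing list had 4 of 55 higher and 6 lower, Mediator and TFIID 9 of 58 and 5, and RNA polymerases I and III 2 of 19 and 0. Of 40 Golgi and secretory genes, 7 (17.5%) were higher and 3 (7.50%) lower. Copz1, a subunit of the COPI coat, had medians of 51.2 and 0.15 TPM and a ratio of 1.65. Arf4, a GTPase of the Golgi, had near-equal medians of 348 and 367 TPM and a ratio of -1.35, which turned to 0.51 in CPM. Per spike-in TPM it was 0.21, below the 1.5 of all genes. The proteasome list had 6 of 41 members higher and 1 lower, and apoptosis and checkpoint genes had 2 of 28 and 3. Immediate early genes had 1 of 10 and 0, tubulins 3 of 10 and 3, and replication-dependent histones 13 of 37 (35.1%) and 13.

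**Figure D4:**
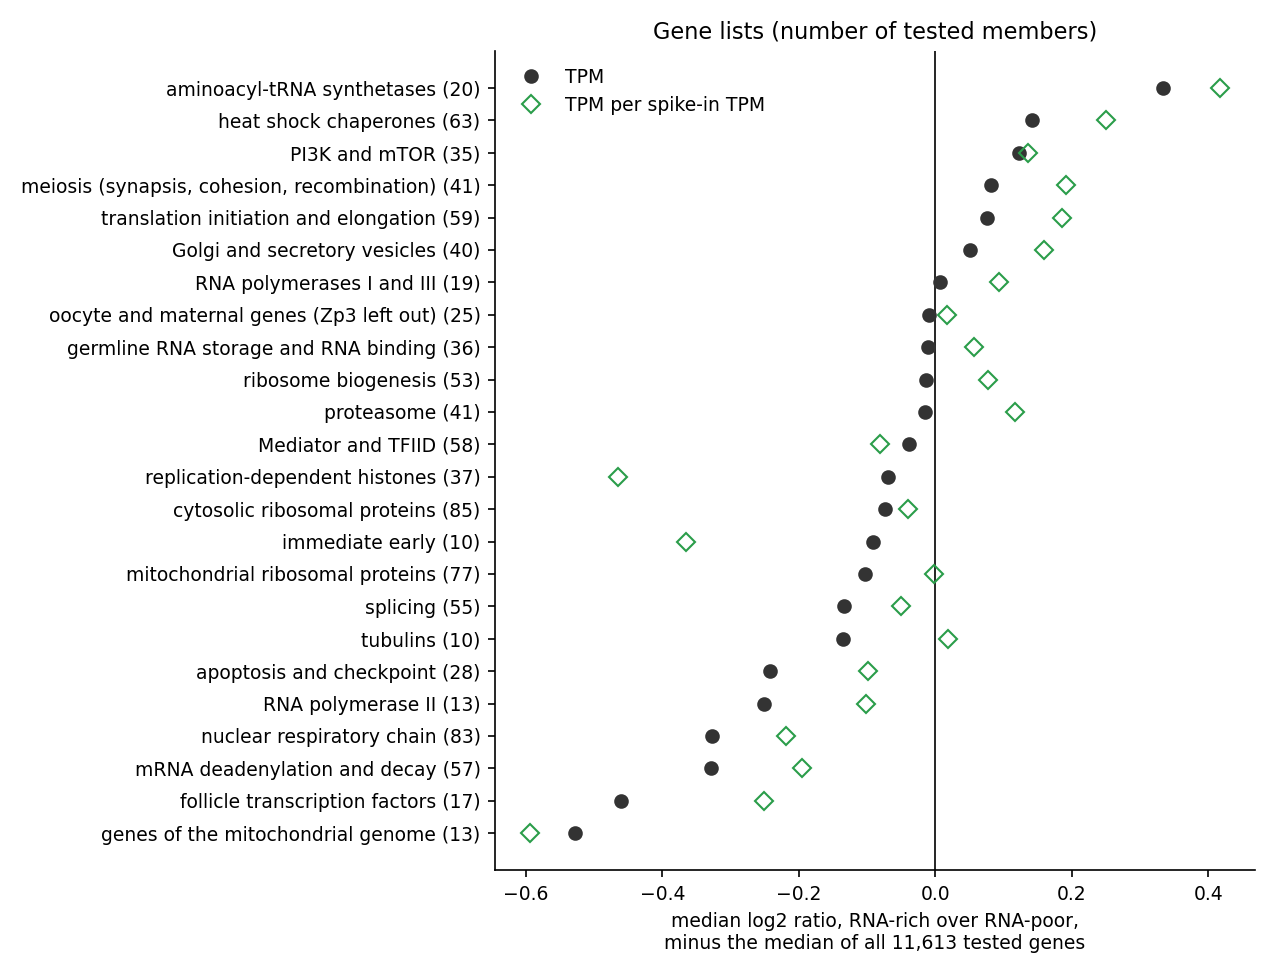
Median log2 ratio of RNA-rich over RNA-poor cells for each gene list with at least 10 tested members (number in brackets), minus the median of all 11613 genes, in TPM (filled) and per spike-in TPM (open). Aminoacyl-tRNA synthetases are highest and genes of the mitochondrial genome lowest on both scales.

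Gene length and base composition were compared because detection was uneven. In 5 classes of increasing transcript length the median ratio was 0.05, 0.21, 0.27, 0.17 and 0.03, so genes of middle length had the higher ratios. In 5 classes of GC content it lay between 0.13 and 0.16. Length and GC were known for 98.6% of the tested genes, and the part of length in the list values was not tested.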

How the data were processed

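Smart-seq2 libraries of 146 single cells from D0.5 ovaries, to which a mixture of 92 ERCC spike-ins had been added, were sequenced from both ends. The authors ran Salmon on an mm10 index that also held the spike-ins, with the option for sequence bias, and checked quality with FastQC. For each cell they deposited TPM, in which all genes and spike-ins of a cell share 1 total, and estimated counts of reads, which were not normalized. The annotation release is not given in the sources used here. Of 52605 symbols, 28006 were matched to GENCODE M21, 35 to RefSeq symbols and 269 to RefSeq synonyms, and 24295 were unmatched, so coding genes are the 19780 matched ones.

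Cells with Ddx4 below 1 TPM were dropped. The spike-in share was computed from estimated counts over all rows, and the lowest and highest 31 of 93 cells with Zp3 below 1 TPM were compared by log2 ratios of mean TPM, over coding genes whose mean was 1 TPM or more. Thinning drew 1000000 reads per cell without replacement from the rounded estimated counts, with spike-ins left out. Calculations were made in Python 3.11.15 (NumPy 2.4.6, pandas 2.3.3, matplotlib 3.10.9) and were tested on simulated data. The members and gene lists were chosen with earlier results of these data known. Named genes are the 12 with the largest ratio in each direction whose mean reached 10 TPM in either group, at least 0.1 TPM in at least 50% of cells of the higher group, and a difference of mean log2(TPM + 1) of the same sign of at least 0.58. To these come the 4 members of each list farthest from the median of all genes, with the same limit of 10 TPM, and all follicle transcription factors. Not all genes chosen in this way are reported here. Germ cell genes such as Dazl and Taf7l and somatic markers are named outside that rule as checks of cell type. Alternatives were other averages, pseudocounts, filters, units, groupings and sets of cells, and each cell left out in turn. As all cells are 1 sample, no test or standard error was computed.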

Additional observations from a re-analysis of the deposited data

How the results depend on the processing

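Counts of genes at least 1.5-fold apart (3041 higher and 1817 lower in RNA-rich cells) moved by over 1.5 times in 2 settings, the difference of mean log2(TPM + 1), with 6403 higher and 183 lower, and the scale per spike-in TPM with no centring, with 10410 and 251 of 11864 genes. The share of higher genes among those called was 62.6% as reported, 97.2% and 97.7% in these, and 56.3% in CPM. Over the other alternatives, higher genes numbered 2318 to 3821 and lower genes 1460 to 2299. With each cell left out in turn there were 2977 to 3175 higher and 1729 to 1871 lower genes, and the difference of thinned genes was 1650 to 1848. With all reads it was 2402, and with all 93 cells but the middle cell in the groups (46 in each) 974.

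Without cells under 5000 thinned genes, a limit chosen after seeing the data, 3135 genes were higher and 1822 lower. Leaving out the globin-richest cell, also chosen after seeing the data, gave 3103 and 1791. Relative to the median of all genes, list medians stayed within 0.58 of their reported value in 485 list and setting pairs, moved further in 15 and, having been past 1.5-fold, reversed in 3, and named genes did so in 1419, 213 and 24. Within that tolerance small medians often changed sign: 21.3% of the 503 list and setting pairs did, and 2.78% of 1656 for named genes. The cause was not tested for any of these. Medians reversed for pregranulosa markers (0.00182) and stroma markers (0.14) with no filter on low values, and for stroma markers in CPM (0.42).

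Genes that reversed are given relative to all genes. In the difference of mean log2(TPM + 1) these were Eif2b4 (0.22) and Hspa2 (-0.0962), and in CPM Cpeb2 (0.15), Arf4 (0.45) and Eif2b4 (0.023). Ano1 reversed with 46 cells in each group (-0.16), the share from TPM (-0.17), groups within total reads (-0.49) and all cells with Ddx4 (-0.70). Cpeb4 reversed with 23 cells in each group (0.65), the share without mitochondrial reads (0.34), cells with Sohlh1 of at least 10 TPM (0.10) and groups without globin-rich cells (0.66), and mt-Atp8 with 23 cells in each group (0.56), the share from TPM (0.40) and without globin-rich cells (0.28). In all cells with Ddx4, Dmc1 (-0.22), Msh5 (-0.0965) and Dppa3 (0.50) reversed. Within total reads, Zfp579 (-0.59) and Padi6 (-1.535) reversed. With each cell left out in turn, Cpeb2 ranged from -4.38 to 1.06, Cpeb4 from -0.87 to 0.16 and mt-Atp8 from -0.72 to 0.19. No paired analysis was possible because the cells carry no replicate numbers that join the groups.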
